A study of Mus musculus with 4 samples.

Results

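The Dppa genes (developmental pluripotency associated) are 4 genes named for their expression in pluripotent cells: Dppa2, Dppa3, Dppa4 and Dppa5a. They were taken by symbol from a table of direct RNA nanopore reads, in which each read is 1 native RNA strand with a poly(A) tail whose length was estimated in nucleotides (nt). The 4 symbols held 9695 of the 1903919 reads whose tail estimate exceeded 0, on 4 of 13831 symbols. The cells were J1 mouse embryonic stem cells grown in serum with LIF and given no treatment, either unmodified wild-type cells (WT) or a knockout of the RNA helicase gene Mov10 (KO). Each genotype had 2 libraries, named WT 1, WT 2, KO 1 and KO 2 after their titles, and the study compared tail lengths between the genotypes. Runs of 4 values below follow that order of libraries. The labels do not say whether the libraries came from separate cultures or whether the KO line was 1 clone, so p-values measure only the spread between these libraries.

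The shared name does not mark 1 protein family. Dppa2 and Dppa4 are related chromatin proteins with a SAP domain, a DNA-binding fold, that act as partners on promoters of developmental genes and lie upstream of genes of the 2-cell-like state, a rare state of stem cell cultures that resembles the early embryo. Dppa3, also called Stella or PGC7, protects DNA methylation of the maternal genome after fertilization and keeps the methylation factor Uhrf1 in check. Dppa5a, also called Esg1, has a KH domain, a fold that binds RNA, and is a marker of undifferentiated stem cells. A poly(A) tail is added to nearly every messenger RNA in the nucleus and shortens in the cytoplasm, and its length is tied to the stability and translation of the message.

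In the RefSeq annotation of GRCm38.p6, Dppa4 and Dppa2 are neighbours on chromosome 16. Dppa3 lies on chromosome 6 between Gdf3, a growth factor of the TGF-beta family, and the pluripotency factor Nanog. Dppa5a lies on chromosome 9 next to Ooep, an oocyte gene that also encodes a KH-like domain. The deposited table assigned Dppa2 (ENSMUSG00000072419.5) and Dppa4 (ENSMUSG00000058550.15) to its class of Mov10 targets without m6A, a methylated adenosine in messenger RNA. It assigned Dppa5a (ENSMUSG00000060461.5) to the non-targets of Mov10, and Dppa3 (ENSMUSG00000046323.8) to no class. How these classes were made is not given in the sources used here.

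The libraries held from 351133 to 683239 reads. For the Mov10 gene itself, the WT libraries gave 26 and 14 reads and the KO libraries 0 and 1. All 6 markers chosen for embryonic stem cells (Pou5f1, Sox2, Nanog, Zfp42, Esrrb and Tdgf1) had reads, and their summed level was 3563 to 3934 reads per 1000000 reads (RPM) for WT, against a KO range of 2642 to 2876 RPM. Of the 6 markers of fibroblast feeder cells, Col1a1, Col1a2, Col3a1 and Postn had no reads in any library. Vim and Thy1, the listed markers with reads, brought the list to 99.7 to 152.4 RPM for WT and 197.6 to 197.7 RPM for KO. The lists for primitive endoderm, mesoderm and neurectoderm reached at most 5.85 RPM in any library, trophectoderm at most 31.9 RPM, and primed pluripotency 22.8 to 31.9 RPM in WT against 2.33 to 5.85 RPM in KO.

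Dppa5a was by far the most read of the 4 genes and held 95.9% of their reads. Since a direct RNA read is 1 molecule read from its 3′ end, read numbers were not divided by transcript length. Dppa5a had 2176, 1975, 3398 and 1745 reads. As a level, WT 1 had 4951 RPM (exact 95% binomial interval 4745 to 5163), WT 2 had 5625 RPM (5380 to 5878), KO 1 had 4973 RPM (4808 to 5143) and KO 2 had 4058 RPM (3870 to 4253). The highest level was thus in a WT library and the lowest in a KO library, with the other two side by side. By read number it ranked at place 29, 13, 19 and 34, out of 11013 to 12065 symbols with reads. Its level was 3.21 to 3.97 times that of Pou5f1, the core pluripotency factor Oct4. Intervals cover counting error only.

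Dppa2 and Dppa4, the chromatin partners, were read at a much lower level. Dppa2 had 44, 52, 74 and 61 reads, or 100.1, 148.1, 108.3 and 141.9 RPM. Dppa4 had 47, 26, 57 and 34 reads, or 106.9, 74.0, 83.4 and 79.1 RPM. Neither gene separated the genotypes: the highest and the lowest Dppa4 levels were both in WT, and so were those of Dppa2.

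Dppa3 was close to the limit of detection. It had 0, 1, 4 and 1 reads. In the library with 0 reads, 3 reads would be 6.83 RPM, and the exact 95% binomial interval reaches 8.39 RPM. Pooled by genotype this was 1 of 790668 reads in WT and 5 of 1113251 reads in KO, or 1.26 RPM (exact 95% binomial interval 0.0320 to 7.05) and 4.49 RPM (1.46 to 10.5). The intervals overlap, and a difference between genotypes was not detectable at this depth. Its coding neighbours were well read: Nanog had from 110 to 188 reads per library and Gdf3 from 44 to 73.

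**Figure D1:**
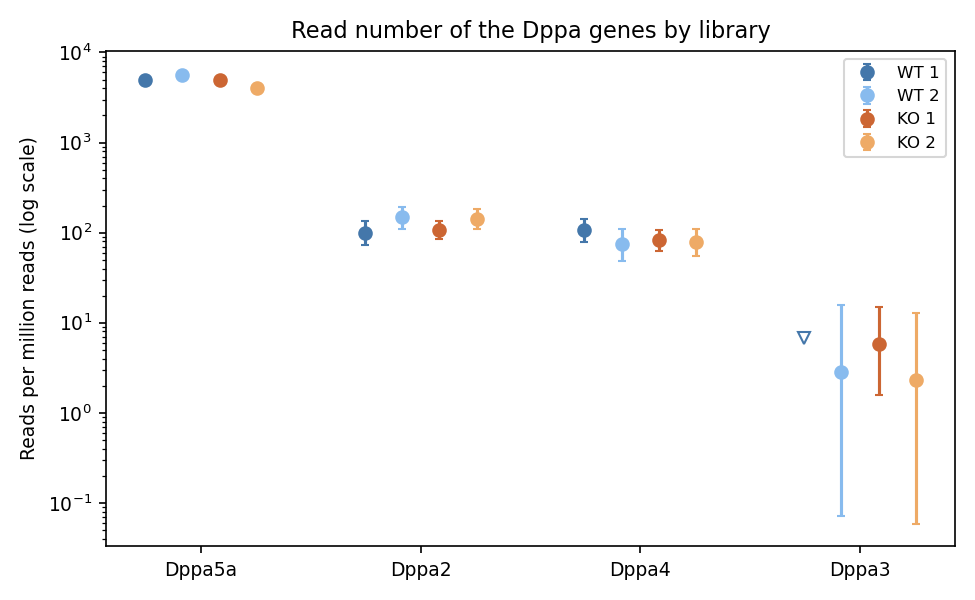
Reads per 1000000 reads (log axis) of the 4 Dppa genes in each library, with exact 95% binomial intervals. The open triangle, at 6.83 RPM, is the level of 3 reads for Dppa3 in WT 1, where the count was 0 and the exact interval reaches 8.39 RPM. Dppa5a sits between 4058 and 5625 RPM, Dppa2 and Dppa4 between 74.0 and 148.1 RPM, and Dppa3 between 2.33 and 5.85 RPM in the other 3 libraries.

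The order of levels was Dppa5a, then Dppa2 and Dppa4, then Dppa3. The log2 ratio of RPM was -5.31 ± 0.35 (SD, n = 4 libraries) for Dppa2 over Dppa5a and -5.84 ± 0.31 for Dppa4 over Dppa5a, with Dppa5a higher in 4 of 4 libraries each. In an exact sign-flip permutation test over the 4 within-library differences, two-sided, both gave p = 0.125, the smallest value it allows, with a Benjamini-Hochberg adjusted p of 0.1875 over the 3 pairs compared. Dppa2 was above Dppa4 in 3 of 4 libraries, by a mean of 0.53 ± 0.49 on the log2 scale (exact permutation p = 0.25, adjusted p = 0.25). Since this test cannot go below 0.125, it does not settle whether these partners differ in level. For each read of Dppa4 there were 0.936, 2.00, 1.30 and 1.79 reads of Dppa2. The share of Dppa2 among the reads of both was lowest at 48.4% for WT 1 (Wilson interval at 95%: 38.4 to 58.5%) and highest at 66.7% for WT 2 (55.6 to 76.1%), so the widest gap was between libraries of the same genotype.

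The first comparison between genotypes was of read number, tested gene by gene with limma's voom after median-of-ratios scaling. Of the 4 genes, 3 had the mean of 10 reads needed for the test, and Dppa3 did not. None of the 3 passed a Benjamini-Hochberg adjusted p of 0.05, and the share of all 4815 genes tested that passed was 0%; 498 genes, or 10.3%, had an unadjusted p under 0.05, and none of the 3 was among them. The same test with limma's trend on log2(RPM + 1) also called 0 genes. The count over all genes changed with the settings. It was 7 with scaling by total reads, 96 with no filter on read number and 66 with the replicate number as a block. No Dppa gene was among them.

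Dppa5a came nearest to a difference. After scaling it had 5486 and 5488 RPM in WT against 4849 and 3850 RPM in KO, so both KO libraries were below both WT libraries. That holds for 20.5% of all genes tested, and it did not hold before scaling, where KO 1 (4973 RPM) was above WT 1 (4951 RPM). The mean scaled level was 5487 ± 1.72 RPM for WT and 4349 ± 706.1 RPM for KO (SD, n = 2 each). The log2 change was -0.34 with a standard error of 0.19 and a 95% interval from -0.74 to 0.07 (limma, adjusted p = 0.575), that is, from 0.598-fold to 1.05-fold the WT level. Without KO 2 the change was -0.17 and without KO 1 it was -0.49. Before scaling, the summed stem cell markers given above were lower in both KO libraries than in both WT libraries, while Dppa5a was not. Their part in the Dppa5a change was not tested. Log2 changes were negative for 13 of the 18 tested genes of the pluripotency network, lowest for Tbx3 (-1.45) and Klf4 (-1.23). They were positive for the other 5, Lin28a (1.40), L1td1 (0.87), Sall4 (0.73), Klf5 (0.53) and Tfcp2l1 (0.51). Before scaling, each of these 5 was lowest in WT 1 (25.0, 77.4, 34.1, 68.3 and 56.9 RPM). Tfcp2l1 was highest in the other WT library, WT 2 (193.7 RPM). None of the 18 tested genes passed the adjusted threshold (limma), and the genes above are named for their values. In RNA from whole cultures, fewer cells with the message and less message per cell cannot be told apart.

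Dppa2 had scaled levels of 110.9 and 144.5 RPM in WT against 105.6 and 134.6 RPM in KO. KO 1 lay just below the WT range and KO 2 inside it, and the log2 change was -0.10 ± 0.30 (SE), with a 95% interval from -0.74 to 0.53 (limma, adjusted p = 0.935). Its sign was not fixed: it was 0.02 under scaling by total reads, 0.08 without WT 2 and 0.11 without KO 1. Dppa4 had scaled levels of 118.5 and 72.2 RPM in WT and 81.3 and 75.01 RPM in KO. Both KO values lay between the WT values. Its log2 change was -0.25 ± 0.33 (SE), with an interval from -0.95 to 0.45 (limma, adjusted p = 0.847), and leaving out WT 1 gave 0.10, leaving out WT 2 gave -0.59. All 3 estimates lay below the median over all genes tested, -0.01, but the interval of each includes 0.

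**Figure D2:**
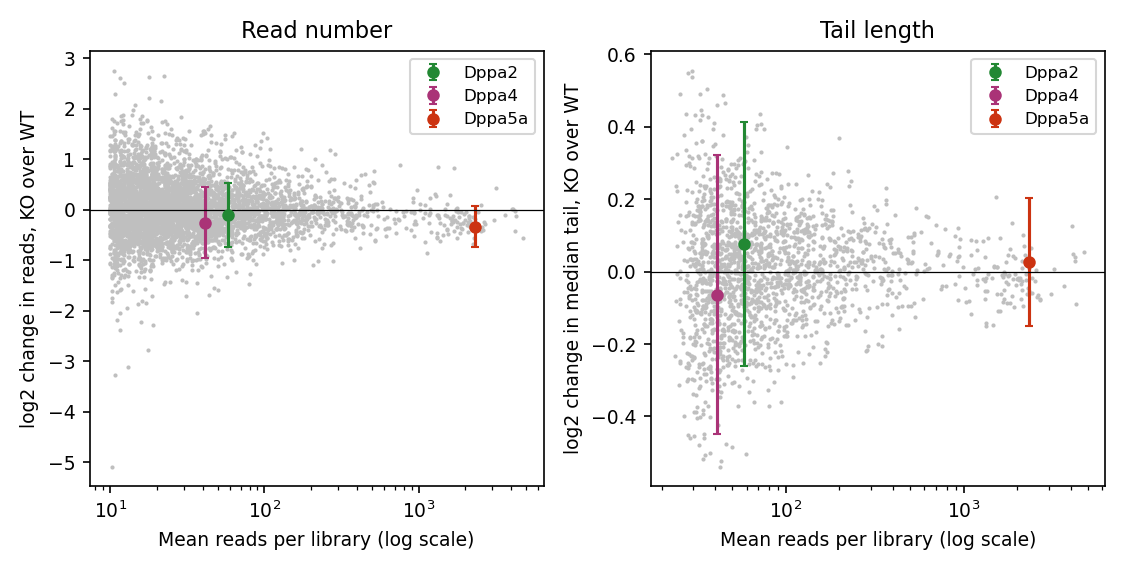
Log2 change of KO over WT against the mean number of reads per library (log axis), for read number (left, 4815 genes) and median tail length (right, 1935 genes); grey points are all genes tested and coloured points are Dppa2, Dppa4 and Dppa5a with limma's 95% intervals. The interval of each coloured point includes 0 in both panels.

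Tail length was described next, starting with Dppa5a, where the depth allows the whole distribution to be seen. The median tail was 106.2 nt for WT 1 (95% order-statistic interval over reads 103.6 to 108.4), 119.4 nt for WT 2 (116.7 to 122.5), 113.9 nt for KO 1 (112.2 to 116.0) and 115.5 nt for KO 2 (113.0 to 118.2). The lowest and the highest medians were thus both in WT. The median over all nuclear-encoded reads also varied by library, at 100.1, 107.9, 108.2 and 100.7 nt. Dppa5a lay above it by 6.0, 11.5, 5.69 and 14.7 nt, and the smallest and the largest of these gaps were both in KO. In each library from 59.3% to 80.6% of the 1935 genes with enough reads had a shorter median.

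Dppa5a had few short tails. Tails under 30 nt made up 0.919% of its WT 1 reads (95% Wilson interval 0.596 to 1.42%), 0.253% of its WT 2 reads (0.108 to 0.591%), 0.324% of its KO 1 reads (0.181 to 0.579%) and 0.344% of its KO 2 reads (0.158 to 0.748%). Those short tails were 20, 5, 11 and 6 reads. Over all nuclear-encoded reads the shares were 2.32%, 2.97%, 1.53% and 2.73%, which is 2.53, 11.7, 4.73 and 7.94 times those of Dppa5a. The difference was 1.93 percentage points ± 0.738 (SD, n = 4) and had the same sign in 4 of 4 libraries (exact sign-flip permutation test, two-sided, p = 0.125, the smallest it allows). The 218 nuclear-encoded genes with at least 200 reads in each library had a lower median share than the pooled reads, at 1.79%, 1.75%, 1.09% and 1.91%. Of these genes, 45, 8, 31 and 8 had a lower share of short tails than Dppa5a, so a low share was common to several deeply read genes. This comparison was chosen after the values were seen.

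The upper end of the distribution was less set apart. Tails of 150 nt or more made up 20.9%, 26.5%, 22.3% and 22.3% of Dppa5a reads, against 18.8%, 24.0%, 23.7% and 19.6% of all reads. That set is not limited to nuclear-encoded reads, unlike the one used for short tails. Dppa5a was above the value for all reads in 3 libraries and below it in KO 1. Against the 218 deeply read genes it was above their median share (16.3%, 21.6%, 20.7% and 17.3%) in 4 of 4 libraries, with 79.8%, 76.6%, 58.7% and 78.4% of them lower. The middle 50% of its tails spanned 67.4, 61.2, 59.7 and 60.4 nt. Among the same genes, 61.0%, 13.3%, 11.9% and 18.3% had a narrower span, so Dppa5a tails were narrow for such a gene in 3 libraries and not in WT 1. Its longest tail was 459.0 nt, in KO 1.

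**Figure D3:**
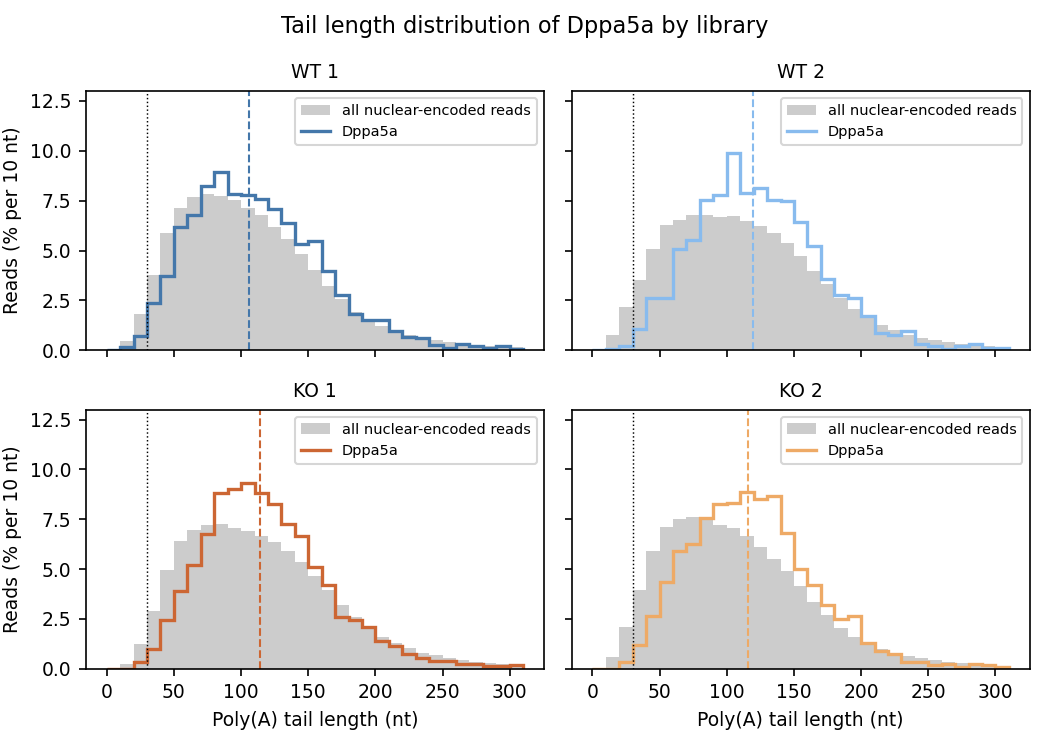
Share of reads per 10 nt of poly(A) tail length in each library, for Dppa5a (coloured outline) and all nuclear-encoded reads (grey), as a percentage of all their reads with the axis ending at 310 nt; the dotted line is at 30 nt and the dashed line is the Dppa5a median, from 106.2 to 119.4 nt. Left of 30 nt the outline is below the grey area in all 4 libraries.

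Dppa2 and Dppa4 had median tails in the same range on far fewer reads. For Dppa2, WT 1 had 119.2 nt (95% order-statistic interval 93.8 to 135.9), WT 2 had 110.0 nt (89.8 to 133.4), KO 1 had 124.5 nt (106.9 to 140.7) and KO 2 had 117.0 nt (93.0 to 137.3). For Dppa4, WT 1 had 106.0 nt (88.1 to 119.4), WT 2 had 126.3 nt (90.6 to 152.4), KO 1 had 128.0 nt (85.8 to 158.1) and KO 2 had 95.7 nt (75.9 to 147.1). The WT and KO medians of both genes overlapped. Single Dppa2 tails ran from 15.5 to 313.7 nt and single Dppa4 tails from 15.1 to 355.0 nt. The middle 50% of Dppa4 tails spanned 129.8 nt in KO 1, and 99.4% of the tested genes had a narrower span there; in the other libraries it was 69.7 to 89.8 nt, with 33.7% to 83.5% of genes narrower.

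The 6 reads of Dppa3 had tails of 159.4 nt in WT 2, 39.2 nt in KO 2 and 73.7, 115.7, 135.3 and 142.3 nt in KO 1. These lie within the ranges of the other genes, and no median was compared.

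**Figure D4:**
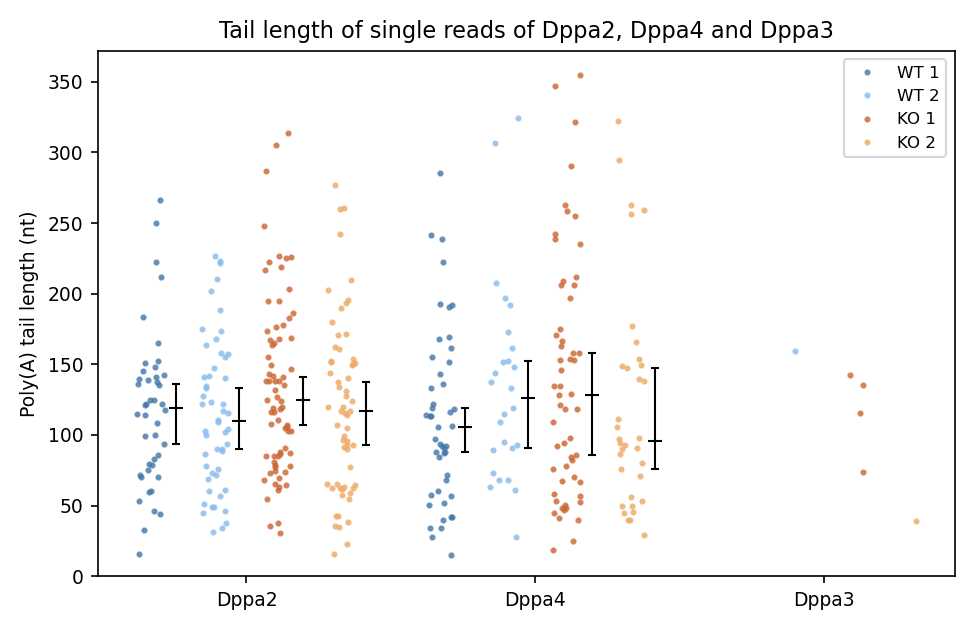
Poly(A) tail length of every read of Dppa2, Dppa4 and Dppa3 (1 point per read, spread sideways at random), by library; black bars are medians with 95% order-statistic intervals, shown for at least 20 reads. The medians lie between 95.7 and 128.0 nt and their intervals overlap between WT and KO.

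The 3 genes did not differ in tail length from each other beyond the spread over libraries. The mean difference of log2 medians was 0.05 ± 0.22 (SD, n = 4) for Dppa2 over Dppa4, 0.05 ± 0.13 for Dppa2 over Dppa5a and -0.01 ± 0.19 for Dppa4 over Dppa5a. Exact sign-flip permutation tests, two-sided, gave p = 0.75, 0.375 and 0.875, each with an adjusted p of 0.875 over 3 pairs. The first was higher in 2, 3 and 2 of 4 libraries.

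Between genotypes, limma on log2 median tail length called none of the 3 genes and 0% of the 1935 genes tested; 2.33% of all genes, and none of the 3, had an unadjusted p under 0.05. The mean of the Dppa5a medians was 112.8 ± 9.37 nt for WT and 114.7 ± 1.10 nt for KO (SD, n = 2 each). Its log2 change of 0.03 had a standard error of 0.09 and a 95% interval from -0.15 to 0.20 (limma, adjusted p = 0.9998), and it was -0.06 without WT 1. Dppa2 had 114.6 ± 6.52 nt and 120.7 ± 5.32 nt (SD, n = 2 each), a log2 change of 0.08 with an interval from -0.26 to 0.41. Dppa4 had 116.1 ± 14.4 nt and 111.9 ± 22.9 nt (SD, n = 2 each), a log2 change of -0.06 with an interval from -0.45 to 0.32. The sign of the Dppa4 value turned without WT 2 (0.06) or KO 2 (0.15), and with the mean of log2 tails (0.01), the arithmetic mean (0.08) or weights by read number (0.03). The median over all genes tested was 0.01.

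Shares of short and long tails within each gene were compared as well, in 6 tests. Long tails made up 18.2% and 25.0% of Dppa2 reads in WT and 32.4% and 31.2% in KO, so the genotypes did not overlap, with a difference of 10.2 percentage points. The same separation upwards was seen for 14.3% of the 1935 genes, and with long tails counted from 200 nt the difference was 2.997 points. The Wilson intervals were wide, from 9.51 to 32.0% in WT 1 and from 22.9 to 43.7% in KO 1. The exact permutation test, two-sided, gave p = 0.333, the smallest possible with 2 libraries against 2, and an adjusted p of 1. Dppa4 short tails also did not overlap, at 4.05% ± 0.289 (SD, n = 2) in WT and 3.22% ± 0.401 in KO (exact permutation p = 0.333, adjusted p = 1), but rest on 1 or 2 reads per library; 21.0% of the genes were separated downwards and 6.15% upwards in this share. For Dppa5a, short tails were 0.586% ± 0.471 in WT and 0.334% ± 0.0142 in KO, and long tails 23.7% ± 4.01 and 22.3% ± 0.0106 (SD, n = 2 each). No difference passed its test (adjusted p = 1 for all 6).

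The reads of Dppa2 and Dppa4 each fell on a pair of transcripts that carry no other symbol. In Dppa2, ENSMUST00000097175.4 had 18, 26, 37 and 29 reads and ENSMUST00000232448.1 had 26, 26, 37 and 32. The transcripts were thus read about equally, with the first at 45.5% ± 6.43 in WT and 48.8% ± 1.74 in KO (SD, n = 2 each). Their median tails differed by -0.0325 nt ± 10.6 (SD, n = 4 libraries), and the first was shorter in 2 of 4 libraries (exact sign-flip permutation test, p = 1).

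In Dppa4, ENSMUST00000050705.3 had 12, 9, 21 and 14 reads and ENSMUST00000096045.8 had 35, 17, 35 and 18. The first made up 30.1% ± 6.42 in WT and 40.6% ± 4.42 in KO (SD, n = 2 each; exact permutation p = 0.333, adjusted p = 0.667 over both genes). Its median tail was 57.1, 72.8, 109.4 and 95.8 nt. That of the second was 113.6, 137.7, 134.5 and 95.1 nt. The first was shorter in 3 of 4 libraries, with a mean difference of -36.4 nt ± 30.1 (SD, n = 4), and the gap was widest in the WT libraries, where its median rests on 12 and 9 reads. The exact sign-flip permutation test gave p = 0.25 and an adjusted p of 0.5. The intervals of the medians overlapped in every library (33.8 to 113.9 nt against 92.2 to 136.2 nt in WT 1). These transcripts were examined after the values were seen.

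**Figure D5:**
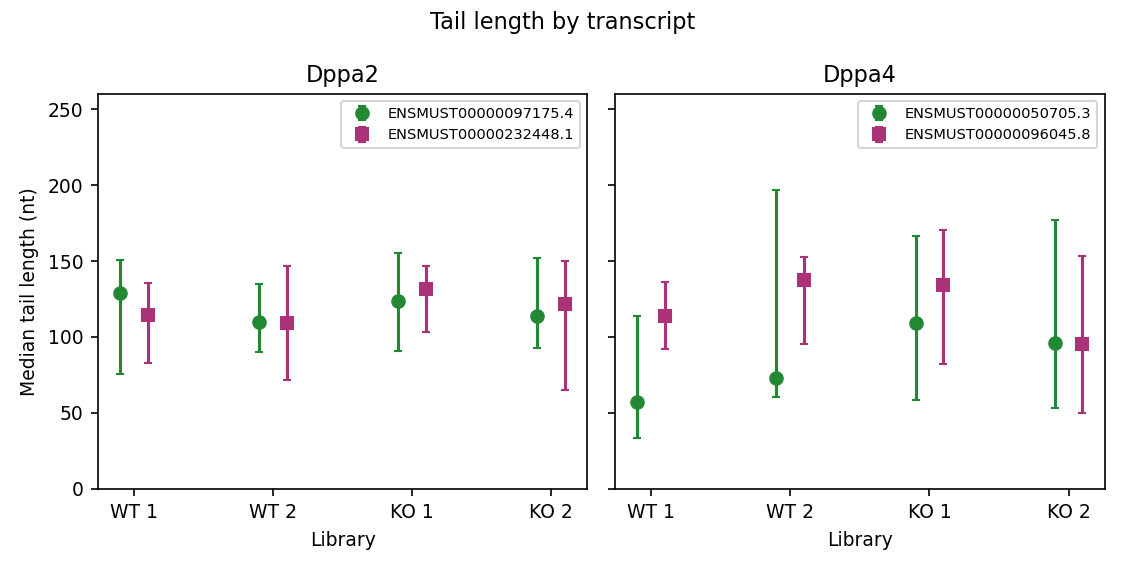
Median poly(A) tail length by library for the transcript pairs of Dppa2 (left) and Dppa4 (right), with 95% order-statistic intervals over reads. The Dppa4 transcript ENSMUST00000050705.3 lies below the other in WT 1, WT 2 and KO 1 and beside it in KO 2, with overlapping intervals throughout.

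A further 3 Dppa4 reads lay on transcripts whose reads mostly carry the symbols S100a10, Rpl37a and Rplp2, and may belong to those genes. All Dppa5a reads lay on ENSMUST00000071991.5, which held 1 read with another symbol. Processed pseudogenes of Dppa5a are known in the mouse genome; 0 other symbols starting with Dppa had reads, so reads from such copies would be counted under Dppa5a or under unrelated names.

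The genes around the 4 were examined by list. Of 20 genes of the pluripotency network, 18 were tested for read number and 0 passed; 13 had negative and 5 positive log2 changes, with a median of -0.36 against -0.01 over all genes, of which 49.4% had positive changes. Utf1, a chromatin protein of stem cells, was -0.08 here and 0.017 under scaling by total reads. Unadjusted p-values under 0.05 belonged to 8 of the 18, 6 with negative and 2 with positive values, against 10.3% of all genes. The 3 most read were Pou5f1 at -0.37 (limma, adjusted p = 0.579), Zfp42 or Rex1, a marker of naive cells, at -1.02 (adjusted p = 0.160), and the naive factor Klf2 at -1.10 (adjusted p = 0.188). The Dppa5a value of -0.34 was close to the median of this list. For tail length, 15 were tested, 0 passed and the median was -0.07 against 0.01 over all genes.

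Genes of the 2-cell-like state, downstream of Dppa2 and Dppa4, were nearly unread: 10 of 20 had any read, none reached the test, and the list summed to 4, 17, 1 and 3 reads. The most read were Gm4340, with 2, 10, 0 and 2 reads, then Zscan4d and Arg2 with 2 reads each in all. Zscan4 genes are near-identical copies, so their reads cannot be attributed to single members.

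Of 11 genes of the DNA methylation machinery around Dppa3, 9 were tested for read number and 0 passed. Log2 changes were positive for 6 and negative for 3, with a median of 0.08. Unadjusted p-values under 0.05 (limma) belonged to 4 of the 9, against 10.3% of all genes. These 4 were Dnmt3a (2.52 ± 0.87, SE), Dnmt3b (1.40 ± 0.65), Dnmt3l (1.31 ± 0.33) and Trim28 (-0.70 ± 0.26). Few WT reads underlie the first 2 of these. Dnmt3a had 2 and 2 reads in WT against 18 and 27 in KO, and Dnmt3b had 6 and 4 against 25 and 18. Uhrf1, the partner that Dppa3 restrains, had 26 and 34 reads in WT and 56 and 38 in KO, a log2 change of 0.05 ± 0.33 (SE; limma, adjusted p = 0.969). The most read were Trim28, a corepressor, at -0.70 (adjusted p = 0.341), the imprint-protecting zinc finger protein Zfp57 at -0.17 (adjusted p = 0.888) and the methyltransferase cofactor Dnmt3l at 1.31 (adjusted p = 0.151). For tail length, 4 were tested and 0 passed. Of 5 KH-domain relatives of Dppa5a, 2 were tested and 0 passed. Ooep, the neighbour of Dppa5a, had a log2 change of -0.54 ± 0.26 (SE; limma, adjusted p = 0.490), and Khdc3, its partner in the oocyte, had 1.35 ± 0.50 (adjusted p = 0.356), with 125 of its 181 reads in KO 1.

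The genes nearest to each Dppa gene over the 4 libraries were sought among those with at least 50 reads in each library, by Euclidean distance on the log2 scale. In scaled read number centred on the gene mean, Dppa5a was nearest to Eif3m (distance 0.0466) and Cox5a (0.0678). Dppa2 was nearest to Eloc (0.0502) and Npm3 (0.0693), and Dppa4 to 2810025M15Rik (0.0450) and Atp5g2 (0.05003). In log2 median tail length, the nearest were Eed (0.0349) and Ndufb6 (0.0406) for Dppa5a, Psmb2 (0.0485) and Rhoa (0.101) for Dppa2, and Rtn4 (0.0816) and Snx5 (0.119) for Dppa4. Near genes were not rare for Dppa5a, where 140 of 854 lay within 0.2 in tail length, against 42 of 855 for Dppa2 and 19 of 855 for Dppa4. With 4 libraries this likeness is a description only.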

How the data were processed

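Per the labels' protocols, polyadenylated RNA was selected on oligo(dT) beads, prepared with the SQK-RNA002 direct RNA kit and DeePlexiCon adapters and run on a MinION; the submitters' processing notes name minimap2 2.20. The tail length tool, build and read filters are not given in the sources used here. The authors deposited 1 table of reads with transcript, symbol, library and tail length in nt, an estimate and not a count; 3 reads with a length of 0 were left out. Depth per library was 439535, 351133, 683239 and 430012 reads in WT 1, WT 2, KO 1 and KO 2. Reads were counted per symbol and library, and tails were collapsed to their median, in Python 3.11.15 (scipy 1.17.1, pandas 2.3.3, numpy 2.4.6). Read number was tested with limma 3.58.1 voom in R 4.3.3 (0.5 reads added, median-of-ratios scaling over the genes tested, mean of at least 10 reads), and log2 median tail length with limma (read number as trend, at least 20 reads in each library), adjusted by Benjamini-Hochberg over all genes at 0.05. Other tests were exact permutation tests; the fits were tested on simulated data. The Dppa genes are always named. From each list, genes past the threshold are named or, where none passed, the 3 most read. Others, such as Uhrf1, were added after their values were seen. The 4 genes, the lists and the tests were chosen with earlier results of these data known. Alternatives are given in the closing section. Sequences of the Dppa genes were not used here.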

Additional observations from a re-analysis of the deposited data

How the results depend on the processing

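No Dppa gene passed the adjusted threshold of 0.05 under any alternative run. Where a library was left out, the lone library of its genotype was assumed to vary like the other group. Adjusted p-values (limma) of read number ranged from 0.826 to 0.999 for Dppa2, 0.306 to 0.999 for Dppa4 and 0.256 to 0.999 for Dppa5a. The Dppa5a read number change was negative under 11 of 11 alternatives, from -0.49 to -0.17. The Dppa2 tail length change was positive under 12 of 12, from 0.02 to 0.13. Among those, the lower read minimum, the replicate block and the transcript filters left it at 0.08, since they do not alter its medians. With a library left out, read number changes ranged from -0.31 to 0.11 for Dppa2 and from -0.59 to 0.10 for Dppa4; tail length changes ranged from -0.27 to 0.15 for Dppa4 and from -0.058 to 0.11 for Dppa5a. Scaled by library totals, where the median over genes tested was 0.11, the Dppa2 read number change was 0.016. Dppa4 tail length was 0.0062 with the mean of log2 tails, 0.077 with the arithmetic mean and 0.026 with weights.

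The number of genes called for read number, 0 of 4815, was 7 with scaling by total reads, 51 with a mean of at least 1 read, 96 with no filter, 1 with factors over all genes, 1 on transcripts with 1 main symbol, and 0 to 451 with a library left out (0 without KO 1 or KO 2, 93 without WT 1, 451 without WT 2). With the replicate number as a block it was 66. Gene by gene, same-numbered libraries did not deviate together (r = 0.0161 over genes for read number, 0.0135 for tail length). That correlation leaves out any shift common to all genes, so it cannot tell whether same-numbered libraries shared a batch. For tail length the count of 0 was 1 with at least 10 reads, and 0 to 2 with a library left out (2 without WT 2); the replicate block gave 0. Fits on transcripts with 1 symbol held no Dppa5a reads, and with at least 50 reads Dppa2 and Dppa4 were not tested for tail length.

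With a library left out, share differences in percentage points ranged from -1.14 to 2.14 for Dppa2 short tails, from -6.54 to 12.0 for Dppa4 long tails, from -0.585 to 0.0806 for Dppa5a short tails and from -4.23 to 1.44 for Dppa5a long tails; for Dppa2 long tails they ranged from 6.79 to 13.6. Limits of 20 and 200 nt gave -0.317 for Dppa2 short tails, 2.997 for Dppa2 long tails (10.2 at 150 nt), 9.61 for Dppa4 long tails (2.74) and -0.187 for Dppa4 short tails (-0.826). The log2 tail difference ranged from -0.023 to 0.14 for Dppa2 over Dppa4 and from -0.064 to 0.082 for Dppa4 over Dppa5a, was -0.036 for Dppa2 over Dppa5a with the mean of log2 tails, and ranged from -0.057 to 0.033 between the Dppa2 transcripts. The short-tail gap of Dppa5a was 0.4997 percentage points at a limit of 20 nt and 1.67 to 2.17 with a library left out. Depth limits Dppa3 throughout and the Dppa2 and Dppa4 tails.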
